A study of Mus musculus with 8 samples.

Results

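Insulin-like growth factors (IGFs) and the proteins that bind them were followed through 10 genes in mouse lung: the ligands *Igf1* and *Igf2*, the imprinted non-coding RNA *H19*, the receptor *Igf1r*, and the IGF binding proteins *Igfbp2*, *Igfbp3*, *Igfbp4*, *Igfbp5*, *Igfbp6* and *Igfbp7*. These 10 of the 55416 genes in the count files were chosen by symbol with their levels in these 8 mice already known, so they were selected on the same values that are given here. Their levels are therefore a description without p-values, and p-values are given only for other genes. The lists those come from were also drawn up with earlier results of these 8 mice known, and their p-values are adjusted over all tested genes but not for that choice.

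Each of the 8 RNA-seq libraries was made from the lung of a separate mouse: 3 untreated by either agent (control), 3 after LPS, and 2 after YW3-56 followed by LPS (dual treatment). LPS, the endotoxin of Gram-negative bacteria, was used to induce endotoxin shock, and YW3-56 inhibits the protein arginine deiminases (PADs), which convert arginine in histones and other proteins to citrulline. The comparisons ask how lung transcripts differ after LPS and whether they differ when the inhibitor is given before it. For the dual treatment the labels give 2 libraries, as the study does where it describes these data, although its methods mention 3 mice per group.

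The mice were C57BL/6 by their labels, and by the methods of the study they were C57BL/6J, female and 6 to 8 weeks old. Control mice received DMSO intravenously and saline intraperitoneally 0.5 h later. Mice of the LPS group received 35 mg/kg LPS intraperitoneally. Dual-treated mice received 10 mg/kg YW3-56 in DMSO 0.5 h before the same dose of LPS. For the LPS group the methods mention no DMSO and no earlier injection. As described, both comparisons with the LPS group thus also differ in vehicle, which cannot be told apart from the treatments. Lungs were taken at 24 h, and the RNA came from a lung lobe of each mouse, with all its cell types mixed. In the survival experiment of the study, median survival was shorter than 24 h after LPS alone and longer with YW3-56. Any selection of surviving mice by the time of harvest was not tested. Mouse numbers are 1, 2, 4 (control), 1, 6, 7 (LPS) and 2, 5 (dual treatment). Total counts in the same order were 19061949, 19796242, 20527836 (control), 20818501, 19379911, 19279724 (LPS) and 19875939, 20908608 (dual treatment). Values below are CPM, counts scaled to a common library size of 1e6, after TMM normalization, and means are given with the SD over mice.

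IGF1 and IGF2 are small secreted hormones that signal through the IGF1 receptor, a tyrosine kinase that feeds the PI3K-AKT and MAP kinase pathways and so promotes growth, survival and protein synthesis. Most IGF in tissue fluid is held by IGF binding proteins, which extend its life and limit or direct its access to the receptor, and which proteases such as PAPP-A cleave to release it. *H19* and *Igf2* lie side by side in an imprinted cluster, share enhancers and are expressed from opposite parental alleles, abundantly before birth and at low levels in most adult tissues. In the adult lung, IGF1 comes largely from mesenchymal cells and macrophages, and binding proteins from fibroblasts, endothelium, smooth muscle, mesothelium and epithelium.

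Markers of lung cell types were detected in all 8 libraries, but not every marker was abundant. The alveolar marker *Rtkn2* had means of 306 CPM in control, 5.35 with LPS and 146 in dual-treated mice. The 9 alveolar epithelial markers, led by the surfactant gene *Sftpc*, summed to between 28969 and 35884 CPM in control mice, between 12946 and 24159 in LPS mice, and to 14029 and 25935 in dual-treated mice. The 5 airway epithelial markers, led by *Scgb1a1*, summed to between 31282 and 39935 CPM in control, between 57352 and 68246 with LPS, and to 23939 and 26427 in dual-treated mice. *Scgb1a1* made up most of this sum. *Cyp2f2* had a lower mean with LPS than in control, 666 CPM against 1132, with 832 in dual-treated mice, and the groups overlapped. The 10 endothelial markers summed to between 3631 and 4245 CPM in control mice, between 2014 and 2541 in LPS mice, and to 3687 and 3899 in dual-treated mice, although *Cdh5* had a mean of 662 CPM in control and 746 with LPS. The 10 fibroblast markers, mostly led by *Pdgfra*, summed to between 1103 and 1175 CPM in control, between 935 and 1109 with LPS, and to 1081 and 864 in dual-treated mice. Opposite differences cancelled in this sum: with LPS the means went from 139 to 60.6 CPM for *Col1a1* and from 73.5 to 34.6 for *Tcf21*, but from 169 to 287 for *Dcn* and from 3.71 to 8.84 for *Lum*. The 5 mesothelial markers summed to between 678 and 747 CPM in control, between 371 and 488 with LPS, and to 586 and 857 in dual-treated mice, with *Msln* at a mean of 224 CPM in control and 241 with LPS.

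The summed neutrophil markers were higher in both treated groups than in control, though *Camp* in dual-treated mice (5.99 and 5.88 CPM) overlapped control (3.80 to 7.14). The summed macrophage markers were highest in dual-treated mice, though *Siglecf* and *Ear2* of that list had their highest mean in control. The 9 neutrophil markers, led by the calprotectin gene *S100a9*, summed to between 130 and 234 CPM in control mice, between 1979 and 3151 in LPS mice, and to 1887 and 2453 in dual-treated mice. The 10 macrophage markers, led by *Chil3*, summed to between 630 and 940 CPM in control, between 535 and 1018 with LPS, and to 1514 and 2076 in dual-treated mice. Dual-treated mice had the lowest erythroid sums, 374 and 340 CPM against 1263 to 3352 in the other 6 mice, and the lowest cardiac muscle sums, 232 and 228 CPM against 405 to 1121. The part of these differences in the comparisons with dual treatment was not tested. Smooth muscle and pericyte markers summed to between 425 and 646 CPM over all 8 mice, lymphocyte and thymus markers to between 4.07 and 30.9, and liver markers to between 0.182 and 1.17. Single genes of the first list differed more than its sum, such as *Notch3* with means of 97.3 CPM in control and 29.2 with LPS, *Acta2* with 86.9 and 134, and *Cnn1* with 27.1 in control and 5.93 in dual-treated mice.

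LPS mice 6 and 7 stood apart from the other 6 mice by transcripts of tissues other than the lung parenchyma. The 10 skeletal muscle markers summed to 504 CPM in LPS mouse 6 and 1200 CPM in LPS mouse 7, with *Acta1* the most abundant at 210 and 600 CPM. They summed to 49.9 CPM in LPS mouse 1, to 22.2, 78.8 and 41.2 CPM in control mice and to 15.7 and 13.3 CPM in dual-treated mice, where *Mb*, which the heart also expresses, made up most of the sum. Of these markers, 9 of 10 had a count in LPS mice 6 and 7, and *Tnnc2* was at 0. Whether reads of *Tnnc2* were counted under this identifier was not tested. Of the 10 squamous epithelium markers, 9 are in the files, and they summed to 714 CPM in LPS mouse 6 and 2005 CPM in LPS mouse 7. The most abundant were the keratins *Krt4*, at 293 CPM in mouse 6, and *Krt13*, at 887 CPM in mouse 7. The same sum was 1.31 CPM in LPS mouse 1, 8.27, 13.0 and 14.0 CPM in control mice and 11.2 and 26.5 CPM in dual-treated mice. *Crct1* was at 0 counts in all control and dual-treated mice, and *Sprr3* was at 0 in all control mice and LPS mouse 1. Not every marker followed: *Ivl* was at 0.0578 and 0.0558 CPM in LPS mice 6 and 7 against 2.25 to 2.80 CPM in control, and *Krt14* at 17.1 and 22.7 CPM against 20.2 CPM in dual-treated mouse 5. Values of *H19* and of other genes that rest on LPS mice 6 and 7 are given with and without them.

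*Igf1* (ENSMUSG00000020053, chr10:87693642-87772904, plus strand, GRCm39), the main circulating IGF, was present at a low level in every mouse. It was measured at 4.65, 10.4 and 4.23 CPM in control mice 1, 2 and 4, at 14.0, 7.10 and 7.48 CPM in LPS mice 1, 6 and 7, and at 11.1 and 4.57 CPM in dual-treated mice 2 and 5. The groups overlapped in all 3 comparisons, with means of 6.43 ± 3.46 (SD, n = 3), 9.53 ± 3.88 (n = 3) and 7.84 ± 4.63 CPM (n = 2). Within each group the highest mouse exceeded the lowest 2.46-, 1.97- and 2.43-fold, more than the fitted 1.48-, 1.21- and 1.22-fold differences between the groups. The fitted log2 fold change (log2FC) was 0.57 (SE 0.45) for LPS against control, -0.28 (SE 0.50) for dual treatment against LPS and 0.28 (SE 0.49) for dual treatment against control. Scaling by library size alone turned the sign of the comparison between dual treatment and LPS (0.07). Without dual-treated mouse 2 the log2FC was -1.08 against LPS and -0.52 against control, and without dual-treated mouse 5 it was 0.21 and 0.76. Dual treatment against LPS gave 0.10 without LPS mouse 1. With LPS mouse 1 as the only LPS mouse, the log2FC was 1.13 for LPS against control and -0.84 for dual treatment against LPS. The direction of *Igf1* between dual treatment and either other group thus depended on single mice. In bulk lung, fewer cells of a type and less RNA per cell cannot be told apart, here or in the results that follow.

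*Igf2* (ENSMUSG00000048583, chr7:142204503-142220694, minus strand), the fetal growth factor, was barely detected. It had 4, 5 and 10 counts in control mice, 0, 5 and 4 in LPS mice and 2 and 10 in dual-treated mice, with group means of 0.297 ± 0.143, 0.171 ± 0.151 and 0.265 ± 0.246 CPM. It was the only listed gene that did not pass the expression filter, so 9 of 10 passed. A fit without the filter gave log2FC of -0.80 (SE 0.92), 0.64 (SE 1.02) and -0.16 (SE 0.96) in the order above, and all groups overlapped. No difference in *Igf2* was detectable at this depth. The count of 0 in LPS mouse 1 allows a level of up to 0.178 CPM (3 counts), a limit that covers counting error only. The non-coding RNA gene *Igf2os* overlaps *Igf2* on the opposite strand. It had 3, 5 and 8 counts in control mice, 1, 0 and 2 in LPS mice and 0 and 1 in dual-treated mice. Since the strand setting of the counting is not given, reads from this overlap cannot be assigned with certainty.

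*H19* (ENSMUSG00000000031, chr7:142129262-142133957, minus strand) is a spliced non-coding RNA that is expressed from the maternal allele and lies 70546 bases from *Igf2*. It had 6, 13 and 8 counts in control mice, 0, 462 and 1006 in LPS mice 1, 6 and 7, and 3 and 11 in dual-treated mice. In CPM these are 0.294, 0.610 and 0.368 in control, 0, 26.7 and 56.2 with LPS, and 0.136 and 0.483 with dual treatment. *H19* was therefore high in LPS mice 6 and 7 alone, and LPS mouse 1 had no count, so the LPS group overlapped both others. Over all 3 LPS mice the fitted log2FC was 6.00 (SE 1.46) against control, and that of dual treatment against LPS was -6.44 (SE 1.81). With LPS mouse 1 as the only LPS mouse, no excess of *H19* with LPS remained. Taking 3 counts (0.178 CPM) as the limit for its count of 0, the control mean of 0.424 CPM was at least 2.38-fold higher. The dual-treatment mean of 0.310 CPM was at least 1.74-fold higher, but this rests on dual-treated mouse 5, since mouse 2 at 0.136 CPM lies below the limit and its order with LPS mouse 1 cannot be told. Between dual treatment and control the log2FC was -0.44 (SE 2.2), and without dual-treated mouse 5, -1.63, and 0.15 without dual-treated mouse 2. Leaving out LPS mouse 7 gave 4.97 for LPS against control and -5.41 for dual treatment against LPS, and leaving out dual-treated mouse 5 gave -7.63 for the latter.

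The 2 mice with high *H19* were the 2 with skeletal muscle and squamous epithelium transcripts. From LPS mouse 6 to LPS mouse 7, *H19* differed 2.10-fold, and most but not all markers were also higher in mouse 7. The ratios of mouse 7 to mouse 6 for the muscle markers were 2.19 for *Myl1*, 2.25 for *Ckm*, 2.27 for *Myh1*, 2.57 for *Mylpf*, 2.86 for *Acta1*, 4.38 for *Pvalb* and 14.5 for *Myh4*, but 0.981 for *Mb* and 0.0604 for *Myh2* (16 counts and 1). For the squamous markers they were 1.33 for *Krt14*, 1.37 for *Krt5*, 1.73 for *Crct1*, 2.71 for *Sprr3*, 2.79 for *Krt4*, 3.03 for *Krt16*, 3.10 for *Krt13* and 3.21 for *Krt6a*, and 0.967 for *Ivl* (1 count in each). *Igf2*, the neighbour of *H19*, was not raised in these mice, with a ratio of 0.773 between them and 5 and 4 counts. The imprinted genes *Meg3* and *Peg3* were likewise at nearly equal levels in mice 6 and 7, with ratios of 1.08 and 1.08, and *Dlk1*, at 6 and 9 counts, had a ratio of 1.45. The part of muscle and squamous tissue in the *H19* values was not tested.

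**Figure D1:**
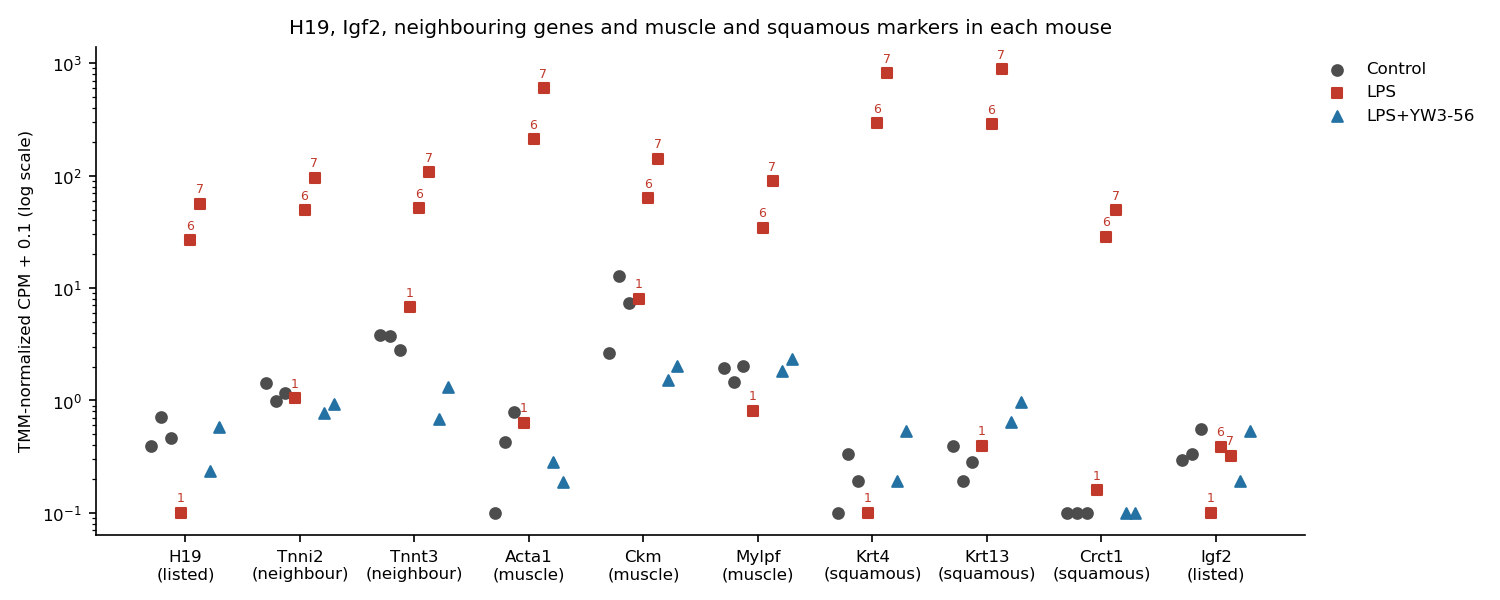
CPM + 0.1 on a log axis for *H19*, *Igf2*, 2 neighbouring muscle genes (*Tnni2*, *Tnnt3*), 3 skeletal muscle markers and 3 squamous epithelium markers, 1 point per mouse, with LPS mice numbered. LPS mice 6 and 7 lie far above the other 6 mice for every gene shown except *Igf2*, and *H19* reaches 26.7 and 56.2 CPM in them.

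The genes whose log2 CPM was most like that of *H19* over the 8 libraries, among 15604 tested genes with a mean of at least 1 CPM, were *Lgals7* (Pearson r = 0.99), *Abca12* (0.99), *Mylpf* (0.98), *Krt4* (0.98) and *Rptn* (0.98). *Lgals7*, *Krt4* and *Rptn* encode proteins of stratified epithelia, *Abca12* a lipid transporter of the skin barrier, and *Mylpf* a light chain of fast skeletal muscle myosin. *Lgals7* was measured at 42.7 and 68.2 CPM in LPS mice 6 and 7, and at 0.475 CPM in LPS mouse 1, where *H19* had no count. All 8 libraries share the LPS mice 6 and 7 as the extreme points. Over the 6 other libraries r was 0.99 for *Lgals7*, 0.83 for *Abca12*, 0.75 for *Mylpf*, 0.70 for *Krt4* and 0.77 for *Rptn*. For *Igf1* the 5 most alike were a gene with no symbol in the annotation (r = 0.90), *Prss12* (0.86), *Prxl2a* (0.86), *Pde3b* (0.85) and *Cep152* (0.84). These are descriptions of 8 libraries, picked as the highest of 15604 values, and no p-value is given. *Igf2* did not pass the filter and was not compared.

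*H19* also hosts the microRNA gene *Mir675*, and the mature sequences are shown because they are the known small RNA products of this transcript. They are given from RefSeq on GRCm38.p6, on the minus strand of chromosome 7, with the seed (bases 2 to 8) in capitals. The *Mir675* locus itself had 0 counts in all 8 libraries, and mature microRNAs were not analysed here.
mmu-miR-675-5p (chr7:142577112-142577133): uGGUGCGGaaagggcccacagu
mmu-miR-675-3p (chr7:142577078-142577099): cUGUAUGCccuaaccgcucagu
The arms have different seeds.

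*Igf1r* (ENSMUSG00000005533, chr7:67601518-67883416, plus strand), the receptor tyrosine kinase that binds both IGFs, was lower in each treated group than in control. The values were 95.9, 106 and 93.2 CPM in control mice, at 72.1, 74.7 and 92.6 CPM in LPS mice 1, 6 and 7, and at 57.6 and 73.5 CPM in dual-treated mice. Neither treated group overlapped control, although LPS mouse 7 came within 1 CPM of the lowest control mouse, and the treated groups overlapped each other. The means were 98.2 ± 6.52, 79.8 ± 11.1 and 65.5 ± 11.2 CPM. The log2FC was -0.30 (SE 0.13) for LPS against control, -0.28 (SE 0.15) for dual treatment against LPS and -0.58 (SE 0.15) for dual treatment against control. With library size as the only scaling, the comparison between dual treatment and LPS changed sign (0.03).

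The 6 binding proteins ranged widely in level, and each sentence of this paragraph gives CPM per kilobase of exon, which allows genes to be compared. In control lung *Igfbp6* was highest at 495 ± 52.2, followed by *Igfbp5* at 125 ± 9.5, *Igfbp7* at 74.6 ± 5.18, *Igfbp2* at 58.5 ± 1.15, *Igfbp4* at 34.9 ± 1.92 and *Igfbp3* at 15.8 ± 3.17 CPM per kilobase. With the length of the canonical transcript, *Igfbp2* at 92.2 ± 1.82 lay above *Igfbp7* at 76.2 ± 5.29 CPM per kilobase, so the order of these depends on the length used. Below them came *Igf1r* at 4.97 ± 0.330, *Igf1* at 0.629 ± 0.338, *H19* at 0.149 ± 0.0581 and *Igf2* at 0.0482 ± 0.0231 CPM per kilobase. With LPS the order became *Igfbp6* at 241 ± 40.5, *Igfbp3* at 199 ± 22.2, *Igfbp7* at 110 ± 14.1, *Igfbp5* at 82.4 ± 17.5, *Igfbp2* at 51.8 ± 23.8 and *Igfbp4* at 21.8 ± 4.65 CPM per kilobase. The SDs of *Igfbp6* and *Igfbp3* overlapped there, as did those of *Igfbp7* and *Igfbp5*, and of *Igfbp5* and *Igfbp2*. Within each LPS mouse *Igfbp6* was above *Igfbp3* (275 and 207, 252 and 216, 196 and 174 CPM per kilobase in mice 1, 6 and 7) and *Igfbp7* above *Igfbp5* (114 and 67.0, 122 and 101, 94.4 and 78.8 CPM per kilobase). For *Igfbp5* and *Igfbp2* the order differed between mice, with *Igfbp2* at 79.0 and *Igfbp5* at 67.0 CPM per kilobase in LPS mouse 1. With the canonical length the order of *Igfbp6* and *Igfbp3* was lost, at 311 and 273, 285 and 285, and 222 and 229 CPM per kilobase in LPS mice 1, 6 and 7. In dual-treated lung the order was *Igfbp6* at 183 ± 58.8, *Igfbp5* at 104 ± 6.27, *Igfbp7* at 75.9 ± 3.58, *Igfbp3* at 38.2 ± 26.9, *Igfbp4* at 31.4 ± 3.35 and *Igfbp2* at 22.6 ± 7.27 CPM per kilobase. *Igfbp4* and *Igfbp2* lay within the spread of *Igfbp3* there.

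*Igfbp3* (ENSMUSG00000020427, chr11:7156086-7164179, minus strand) carries most circulating IGF in a complex with the acid-labile subunit. Among the binding proteins it differed most for LPS against control and for dual treatment against LPS. Between dual treatment and control, *Igfbp6* (log2FC -1.43) and *Igfbp2* (-1.37) differed more. *Igfbp3* was measured at 43.3, 63.3 and 62.4 CPM in control mice, at 738, 770 and 620 CPM in LPS mice 1, 6 and 7, and at 204 and 68.3 CPM in dual-treated mice 2 and 5. All 3 LPS mice exceeded every other mouse, and both dual-treated mice lay above control, mouse 5 only narrowly. The log2FC was 3.65 (SE 0.36) for LPS against control, a 12.6-fold difference, and 3.72 with LPS mouse 1 as the only LPS mouse. It was -2.38 (SE 0.40) for dual treatment against LPS and 1.27 (SE 0.36) for dual treatment against control. Dual-treated mouse 2 carried most of that last value, since without it the log2FC was 0.25 against control and -3.40 against LPS.

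*Igfbp6* (ENSMUSG00000023046, chr15:102052697-102057953, plus strand), which prefers IGF2 over IGF1, was lower in each treated group than in control. Levels were 766, 647 and 635 CPM in control mice, at 380, 348 and 271 CPM in LPS mice and at 195 and 310 CPM in dual-treated mice. Neither treated group overlapped control and the treated groups overlapped each other, with a log2FC of -1.04 (SE 0.19) for LPS, and of -1.43 (SE 0.22) for dual treatment, both against control. The log2FC of dual treatment against LPS was -0.40 (SE 0.21), and -0.07 when scaled by library size alone.

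*Igfbp2* (ENSMUSG00000039323, chr1:72863606-72891634, plus strand), an IGF carrier made by several epithelia, was lower in dual-treated lung than in both other groups. It was measured at 124, 120 and 121 CPM in control mice, at 164, 87.1 and 72.1 CPM in LPS mice 1, 6 and 7, and at 36.3 and 57.6 CPM in dual-treated mice. The log2FC of dual treatment was -1.20 (SE 0.33) against LPS and -1.37 (SE 0.33) against control, with no overlap in either. LPS mice lay on both sides of control, LPS mouse 1 above it and mice 6 and 7 below it, so the log2FC of -0.18 (SE 0.28) for LPS against control became 0.44 when LPS mouse 1 was the only LPS mouse. The log2FC of dual treatment against LPS was then -1.81.

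*Igfbp5* (ENSMUSG00000026185, chr1:72897091-72914043, minus strand) is the most conserved of the family and binds extracellular matrix, and its gene ends 5457 bases from that of *Igfbp2*. It was measured at 806, 763 and 693 CPM in control mice, at 402, 610 and 473 CPM in LPS mice, and at 598 and 651 CPM in dual-treated mice. All 5 treated mice were below control, and the treated groups overlapped each other. The log2FC was -0.61 (SE 0.16) for LPS against control, 0.34 (SE 0.17) for dual treatment against LPS and -0.27 (SE 0.17) for dual treatment against control. With LPS mouse 1 as the only LPS mouse the first was -0.90 and the second 0.63. Although adjacent to *Igfbp2*, it showed another order of groups.

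*Igfbp4* (ENSMUSG00000017493, chr11:98932064-98945218, plus strand), an inhibitor of IGF action that is cleaved by PAPP-A, was lower in LPS mice than in all others. The values were 147, 164 and 152 CPM in control mice, at 74.6, 98.9 and 115 CPM in LPS mice, and at 149 and 129 CPM in dual-treated mice. Dual-treated and control mice overlapped. The log2FC was -0.68 (SE 0.15) for LPS against control, 0.53 (SE 0.17) for dual treatment against LPS and -0.15 (SE 0.17) for dual treatment against control. LPS mouse 1 was the lowest of all, and as the only LPS mouse it gave -1.04 and 0.89 for the first 2 comparisons.

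*Igfbp7* (ENSMUSG00000036256, chr5:77493130-77555931, minus strand), a secreted relative that binds IGFs weakly and is abundant in vessels, was higher in LPS mice than in all others. Levels were 374, 418 and 427 CPM in control mice, at 621, 663 and 514 CPM in LPS mice, and at 400 and 428 CPM in dual-treated mice. The log2FC was 0.56 (SE 0.12) for LPS against control, -0.54 (SE 0.14) for dual treatment against LPS and 0.03 (SE 0.14) for dual treatment against control. With library size as the only scaling the first was 0.27 and the second -0.21, in the same directions. *Igfbp7* overlaps *Polr2b* on the opposite strand, which had between 1085 and 1317 counts per library, and since the strand setting of the counting is not given, reads from the overlap cannot be assigned with certainty.

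**Figure D2:**
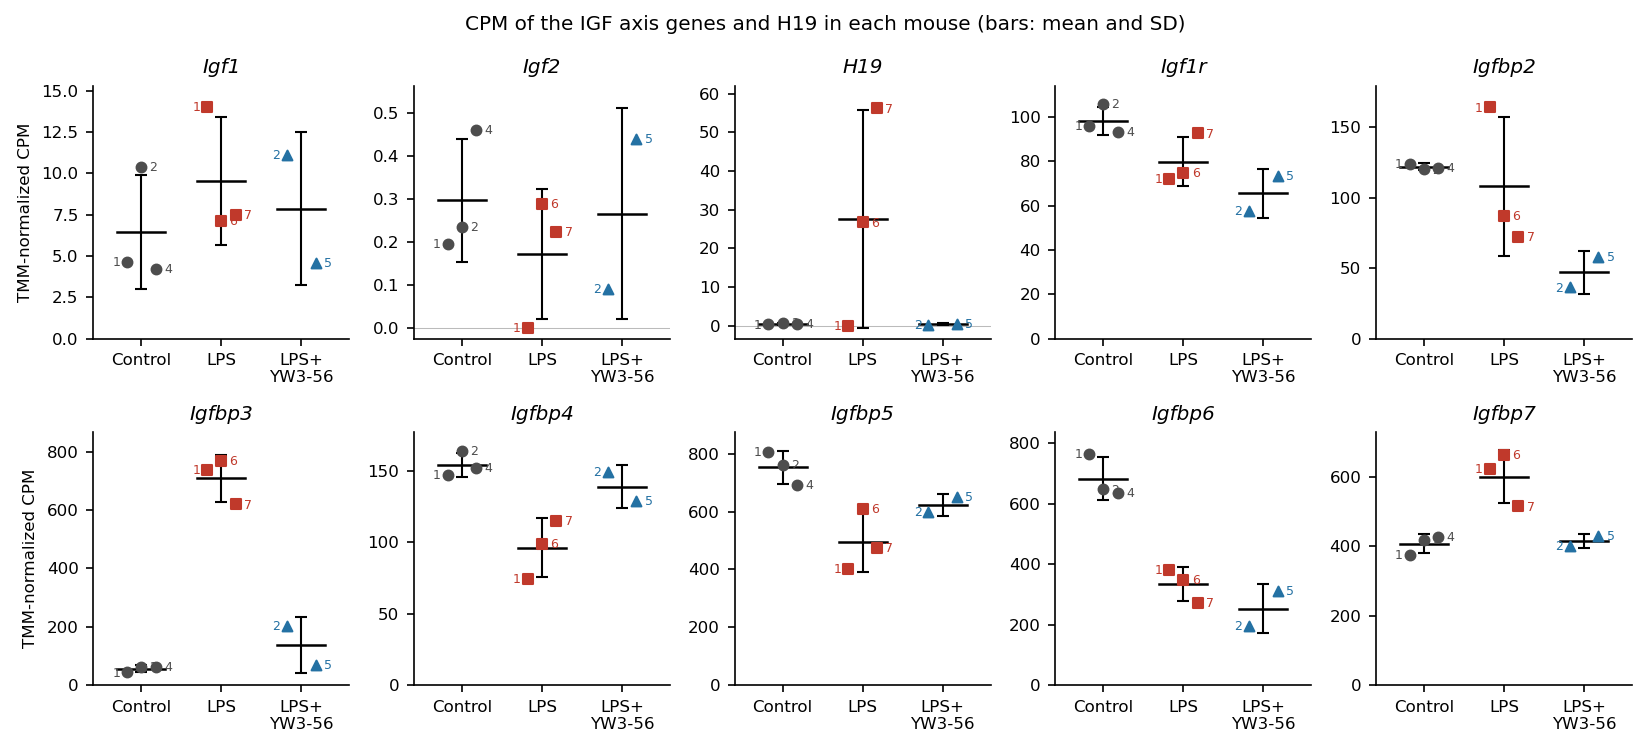
TMM-normalized CPM of the 10 listed genes, 1 point per mouse with its number, and the mean and SD of each group as black bars, on a linear axis for each gene. The 3 LPS mice lie at 620 to 770 CPM for *Igfbp3* against 43.3 to 63.3 CPM in control, while *H19* is high in LPS mice 6 and 7 alone.

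The makeup of the binding protein transcripts shifted between groups. *Igfbp6* made up 64.3%, 59.7% and 60.3% of the summed CPM per kilobase of the 6 genes in control mice, 36.2%, 33.3% and 32.5% in LPS mice, and 33.4% and 46.1% in dual-treated mice. *Igfbp3* made up 1.41%, 2.26% and 2.29% in control mice, 27.3%, 28.6% and 28.8% in LPS mice, and 13.5% and 3.93% in dual-treated mice 2 and 5. All 3 LPS mice were alike in these 2 shares, LPS mouse 1 included. *Igfbp5* had its largest share in dual-treated mice, with 15.6% ± 0.549 in control, 11.8% ± 2.56 with LPS and 22.9% ± 0.921 with dual treatment. *Igfbp7* had a share of 9.33% ± 1.21 in control, 15.6% ± 0.546 with LPS and 16.7% ± 0.894 with dual treatment. The sum itself was 804 ± 52.0 CPM per kilobase in control, 706 ± 88.4 with LPS and 455 ± 45.7 with dual treatment. Dual-treated mice thus had the smallest sum, 423 and 487, below every other mouse. With the length of the canonical transcript in place of all exon bases, a choice made after seeing the data, the mean *Igfbp3* share was 2.30%, 31.4% and 10.2% in the 3 groups.

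**Figure D3:**
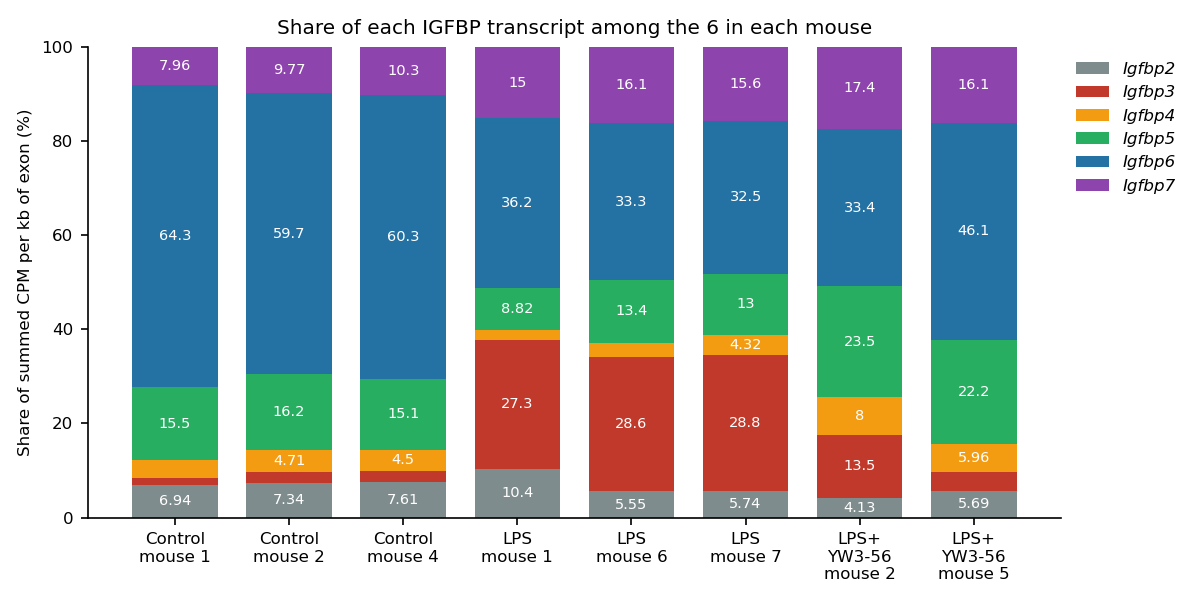
Share of each binding protein gene in the summed CPM per kilobase of exon of *Igfbp2* to *Igfbp7*, as stacked bars from 0 to 100%, 1 bar per mouse. *Igfbp6* takes 59.7% to 64.3% in control mice and 32.5% to 36.2% in LPS mice, where *Igfbp3* takes 27.3% to 28.8%.

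By the rule used for other genes (edgeR, adjusted p under 0.05), 3 of the 9 listed genes that passed the filter were higher with LPS than in control and 3 were lower. Of all 18560 tested genes 32.6% were called higher and 33.9% lower. For dual treatment against LPS, 1 was higher and 4 were lower, against 31.7% and 27.4% of all tested genes. For dual treatment against control, 1 was higher and 3 were lower, against 9.13% and 7.02%. The groups did not overlap in CPM for 6, 4 and 5 of the 10 listed genes in the 3 comparisons, while the same held for 72.0%, 70.8% and 52.2% of all tested genes. With LPS mouse 1 as the only LPS mouse, 2 listed genes were higher and 5 lower for LPS against control, and 2 and 3 for dual treatment against LPS, where 27.1% and 28.4%, and 25.9% and 23.2%, of all genes tested then were called. Nothing is read from these counts, since the genes were chosen with these values known. The 3 comparisons share mice, so their values are not independent of each other.

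The rest of the pathway was described through 41 genes in 7 groups, from ligands to signalling, none of them among the 10. Of these, 37 passed the filter and were tested with edgeR over all 18560 genes. With LPS 18 rose and 11 fell against control, with a median log2FC of 0.34 against -0.01 over all tested genes, of which 32.6% were higher and 33.9% lower. In dual-treated against LPS mice 12 were higher and 18 lower (31.7% and 27.4% of all), with a median of -0.40 against 0.06. Between dual treatment and control, 2 were higher and 8 lower (9.13% and 7.02% of all), with a median of -0.15 against 0.00. The split depended on scaling: with library size alone the counts were 14 higher and 13 lower for LPS against control and 13 higher and 12 lower for dual treatment against LPS, when the median of all genes itself shifted by -0.28 and 0.32 the list medians were 0.05 and -0.07, and 23.4% and 42.2%, and 42.5% and 17.4%, of all genes were called. With LPS mouse 1 as the only LPS mouse they were 17 and 12, and 10 and 18, with 27.1% and 28.4%, and 25.9% and 23.2%, of all genes. For dual treatment against control, 3 of the 37 were called without dual-treated mouse 2 and 5 without control mouse 2, in place of 10.

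The remaining ligands were absent: *Ins1* and *Ins2*, the insulin genes, had 0 counts in all 8 libraries, as did the liver-derived carrier *Igfbp1*. Among receptors, *Igf2r*, which internalizes IGF2 for lysosomal degradation, fell with LPS. It was at 119, 121 and 119 CPM in control, 56.7, 55.2 and 57.0 with LPS and 103 and 119 with dual treatment, with a log2FC of -1.09 (SE 0.09) for LPS against control (edgeR, adjusted p = 5.28e-06). In dual-treated mice it was higher than in all LPS mice, with a log2FC of 0.98 (edgeR, adjusted p = 3.17e-05). The insulin receptor *Insr* was also lower with LPS, at 57.5 ± 7.39 CPM against 79.0 ± 5.37 (log2FC -0.46, edgeR adjusted p = 0.004), and *Insrr*, an alkali-sensing relative, was at most 1.27 CPM in every mouse.

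Of 3 further carriers only *Igfals* was tested. *Igfals*, the acid-labile subunit that forms the ternary complex with IGFBP3, rose from 0.880 ± 0.225 CPM in control to 2.27 ± 0.749 with LPS (log2FC 1.36, edgeR adjusted p = 0.00786), a low level in all mice. *Pappa*, the protease that cleaves IGFBP4, was at 2.74, 3.47 and 3.68 CPM in control, 19.2, 24.4 and 25.1 with LPS and 20.1 and 6.72 in dual-treated mice 2 and 5. It rose with LPS by a log2FC of 2.79 (SE 0.36, edgeR adjusted p = 0.000105). Its log2FC between dual treatment and control was 2.02 (edgeR adjusted p = 0.00756), and 0.99 without dual-treated mouse 2 (adjusted p = 0.0519). *Htra1*, a secreted serine protease that cleaves IGFBP5, rose to 67.5 ± 4.89 from 43.1 ± 1.79 CPM and was 36.8 ± 7.72 CPM in dual-treated mice (log2FC 0.65 and -0.88, edgeR adjusted p = 0.00102 and 0.000496). *Stc1*, a stanniocalcin that inhibits PAPP-A, was called higher with LPS at a log2FC of 1.12 (edgeR adjusted p = 0.0355), but LPS mouse 1 at 16.0 CPM set this value, and without it the log2FC was 0.51 (adjusted p = 0.177). The *Stc1* call was also lost without any of control mice 1, 2 and 4 (adjusted p = 0.0538, 0.0772 and 0.111) and with library size alone (0.0903). With it, 3 of the 5 proteases and inhibitors were called higher with LPS and none lower, where 32.6% of all tested genes were called higher and 33.9% lower. With library size alone 2 were higher and none lower, against 23.4% and 42.2%. *Pappa2* and *Stc2* were called in no comparison.

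Among the IGF2 mRNA-binding proteins, *Igf2bp2* rose with LPS from 21.3 ± 1.97 to 40.8 ± 4.73 CPM and was 22.8 ± 0.722 CPM in dual-treated mice (log2FC 0.94 and -0.84, edgeR adjusted p = 9.18e-05 and 0.000576). *Igf2bp1* went the other way and was called higher in dual-treated than in LPS mice (log2FC 1.38, edgeR adjusted p = 0.0133). Without dual-treated mouse 5, which leaves 1 dual-treated mouse, its log2FC was 1.07 and the call did not hold. For LPS against control its log2FC of -0.91 was not called with TMM factors and all mice (edgeR adjusted p = 0.0509). With library size alone it was called (log2FC -1.17, edgeR adjusted p = 0.0212). *Igf2bp1* and *Igf2bp3* had means below 4 CPM in every group.

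Of 19 signalling genes, 9 rose and 7 fell with LPS, and 1 was higher and 8 lower in dual-treated than in control mice. With library size as the only scaling 6 rose and 8 fell with LPS (23.4% and 42.2% of all genes), and with LPS mouse 1 as the only LPS mouse 8 and 7 (27.1% and 28.4%). With TMM factors and all mice, over all tested genes 32.6% were higher and 33.9% lower with LPS, and 9.13% and 7.02% between dual treatment and control. In that last comparison, *Grb10*, *Grb14*, *Pik3r1* and *Pik3ca* lost their calls without control mouse 2 (edgeR adjusted p = 0.116, 0.0742, 0.08 and 0.0593). Their log2FC of -0.43, -0.76, -0.50 and -0.47 were then -0.41, -0.70, -0.44 and -0.44. Without dual-treated mouse 2 they were -0.37, -0.57, -0.39 and -0.50, and that of *Foxo3* went from -0.48 to -0.45. None of these genes, *Foxo3* included, kept its call in that fit, which leaves 1 dual-treated mouse. The insulin receptor substrates, the first docking proteins below the receptors, moved apart. *Irs2* was at 44.1, 40.8 and 46.6 CPM in control mice, 255, 156 and 205 in LPS mice and 55.5 and 32.1 in dual-treated mice, with a log2FC of 2.23 (SE 0.22) for LPS against control and -2.23 (SE 0.26) for dual treatment against LPS (edgeR, adjusted p = 2.1e-05 and 9.34e-05). Dual-treated mice lay on both sides of control for *Irs2*. *Irs1* was at 13.4, 14.8 and 14.4 CPM in control, 3.74, 2.95 and 3.63 with LPS and 5.35 and 6.19 with dual treatment. It fell with LPS (log2FC -2.05, SE 0.17, edgeR adjusted p = 7.21e-06) and was still lower than control in dual-treated mice (log2FC -1.30, edgeR adjusted p = 0.002).

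Further down, the kinase gene *Akt2* rose with LPS from 144 ± 6.82 to 215 ± 13.0 CPM (log2FC 0.58), and *Akt1*, the more abundant of the pair at 236 ± 11.5 CPM in control, was at 249 ± 9.43 CPM and was not called (edgeR, adjusted p = 0.000737 and 0.48). *Foxo1*, a transcription factor that AKT excludes from the nucleus, rose with LPS (log2FC 1.12), while *Foxo4* fell (-1.02), with edgeR adjusted p = 6.44e-06 and 1.1e-05. The adaptor genes *Grb10* and *Grb14*, which restrain the receptors, fell with log2FC of -1.04 and -1.72, and *Ptpn1*, a phosphatase that inactivates them, rose with a log2FC of 1.67 (edgeR, adjusted p = 2.51e-05, 1.62e-05 and 4.8e-06). *Ptpn1* was at 249 ± 18.1 CPM in dual-treated mice, between 116 ± 3.93 in control and 369 ± 61.2 with LPS. It was called against both, but against LPS the log2FC of -0.56 (edgeR adjusted p = 0.0075) was -0.23 with library size alone (adjusted p = 0.099). *Mtor*, a kinase that promotes protein synthesis, was called higher with LPS by a small log2FC of 0.23 (edgeR, adjusted p = 0.0266), which was -0.06 with library size as the only scaling. The call was also lost when any of the 3 control mice or LPS mouse 1 was left out, with adjusted p from 0.0575 to 0.085.

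All 6 genes of the growth hormone axis, which drives *Igf1* transcription in the liver, changed with LPS and differed between dual treatment and LPS, and none was called between dual treatment and control. Such calls were common among all tested genes, with 32.6% higher and 33.9% lower for LPS against control, and 31.7% and 27.4% for dual treatment against LPS. *Jak2*, *Stat5a*, *Socs2* and *Cish* rose with LPS, with log2FC of 1.57, 1.44, 1.30 and 1.07, and the receptor gene *Ghr* and the transcription factor gene *Stat5b* fell, with log2FC of -1.11 and -1.29. The STAT5 pair thus changed in opposite directions: *Stat5a* was at 17.6 ± 1.30 CPM in control and 47.8 ± 7.90 with LPS, and *Stat5b* at 83.3 ± 3.30 and 34.0 ± 1.03 CPM. The edgeR adjusted p was 1.41e-05 for *Stat5a* and 1.95e-06 for *Stat5b*, and LPS mice did not overlap control for either. Between dual treatment and control the edgeR adjusted p of these genes ran from 0.0712 for *Stat5b* to 0.473 for *Jak2*. Without dual-treated mouse 5, *Socs2* was called higher than control (log2FC 0.67, edgeR adjusted p = 0.00996).

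**Figure D4:**
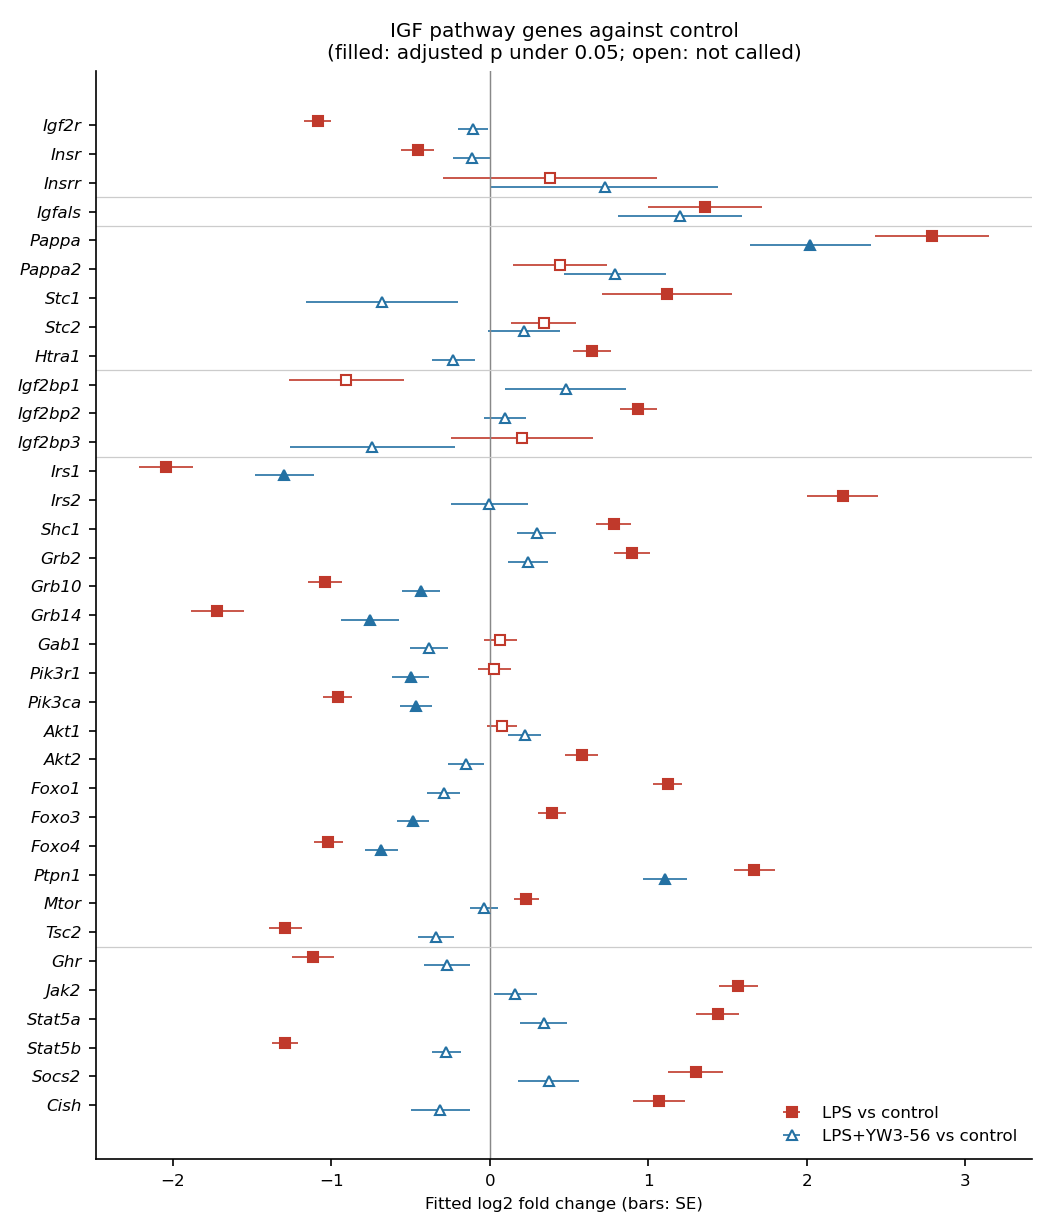
Fitted log2FC with SE of 35 of the 37 tested pathway genes for LPS against control (squares) and dual treatment against control (triangles), filled where the edgeR adjusted p is under 0.05 and grouped by role between grey lines. *Pappa* and *Irs2* lie farthest to the right for LPS at 2.79 and 2.23 and *Irs1* farthest to the left at -2.05.

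Proteins that share the IGF-binding domain without being classical carriers formed a list of 11 genes, of which 10 were tested. With LPS 3 rose and 4 fell, against 32.6% and 33.9% of all tested genes. With library size alone it was 1 and 6, against 23.4% and 42.2%, and with LPS mouse 1 as the only LPS mouse 2 and 3, against 27.1% and 28.4%. Between dual treatment and LPS 4 were higher and 4 lower, against 31.7% and 27.4%, and with LPS mouse 1 alone 4 and 5, against 25.9% and 23.2%. The calls of *Ccn2* and *Ccn3* as higher with LPS were lost without control mouse 1 (edgeR adjusted p = 0.0639 and 0.1). Their log2FC of 0.71 and 1.02 were then 0.81 and 0.88, and LPS mice overlapped control for *Ccn2*. Between dual treatment and LPS, library size alone gave 4 higher and 3 lower, against 42.5% and 17.4%. The log2FC of *Crim1* was -0.22 there in place of -0.55, and it was -0.34 without dual-treated mouse 2. *Htra3*, a secreted serine protease, fell with LPS from 33.8, 41.8 and 38.7 CPM to 1.90, 4.16 and 4.86 CPM, and was at 33.4 and 29.5 CPM in dual-treated mice (log2FC -3.38 and 3.11, edgeR adjusted p = 5.31e-06 and 2.31e-05). *Ccn5*, a matricellular protein, was at 54.3 ± 12.1 CPM in control, 10.5 ± 2.44 with LPS and 113 ± 24.7 with dual treatment, which was the highest of the groups (log2FC -2.37 and 3.43, edgeR adjusted p = 1.18e-05 and 6.95e-06). *Ccn1*, an immediate early gene of the same family, rose with LPS to 1048, 261 and 384 CPM in LPS mice 1, 6 and 7 from 115 ± 10.6 CPM (log2FC 2.30, edgeR adjusted p = 0.00132). Without LPS mouse 1, its log2FC was 1.5 (adjusted p = 0.000204). *Esm1*, an endothelial proteoglycan, was lowest in dual-treated mice, at 5.94 and 4.79 CPM against 34.5 ± 11.7 in control and 27.8 ± 4.13 with LPS (log2FC -2.69 and -2.37, edgeR adjusted p = 0.000468 and 0.000123).

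Of 23 other imprinted genes, which like *H19* and *Igf2* are expressed from 1 parental allele in at least some tissues, 19 were tested. With LPS 3 rose and 11 fell, with a median log2FC of -0.79 against -0.01 over all tested genes, of which 32.6% were higher and 33.9% lower, and with LPS mouse 1 as the only LPS mouse 3 rose and 7 fell (27.1% and 28.4% of all). Between dual treatment and control none was higher and 3 were lower (*Plagl1*, *Meg3* and *Peg10*), where 9.13% of all tested genes were higher and 7.02% lower. The call of *Plagl1* was lost without control mouse 2 or dual-treated mouse 2 (edgeR adjusted p = 0.0593 and 0.0973), and that of *Meg3* without control mouse 1, control mouse 2 or dual-treated mouse 5 (0.0577, 0.0711 and 0.0735). Without dual-treated mouse 5, *Slc38a4* and *Peg3* were called higher (log2FC 1.37 and 0.75, edgeR adjusted p = 0.000787 and 0.03), as both were with no filter, and *Mest*, *Gnas* and *Airn* lower (adjusted p = 0.0227, 0.0436 and 0.0235). With DESeq2 *Slc38a4* was called higher and *Rian* lower. *Cdkn1c*, a cyclin-dependent kinase inhibitor from the same distal chromosome 7 region as *H19*, fell with LPS from 30.1 ± 1.63 to 6.44 ± 1.55 CPM and was 23.7 ± 7.81 CPM in dual-treated mice (log2FC -2.23 and 1.88, edgeR adjusted p = 1.67e-05 and 0.000119). The non-coding RNAs *Kcnq1ot1* and *Airn* fell with log2FC of -2.38 and -2.19 (edgeR, adjusted p = 1.17e-05 and 6.19e-05). *Slc38a4*, an amino acid transporter, rose from 22 ± 1.54 to 154 ± 26.8 CPM, and *Zdbf2* from 1.67 ± 0.554 to 9.32 ± 2.86 CPM (log2FC 2.81 and 2.48, edgeR adjusted p = 2.83e-05 and 9.72e-05). None of the last 5 genes, from *Cdkn1c* to *Zdbf2*, behaved like *H19*, since LPS mouse 1 shared their direction with LPS mice 6 and 7.

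Around *H19*, 12 neighbouring genes on chromosome 7 were examined, of which 11 were tested. With LPS 3 rose (*Syt8*, *Tnni2*, *Tnnt3*) and 2 fell (*Tspan32*, *Cd81*), and with LPS mouse 1 as the only LPS mouse 1 rose and 2 fell. Of all tested genes 32.6% were higher and 33.9% lower in the first case, and 27.1% and 28.4% in the second. *Tnnt3* and *Tnni2*, troponin genes of fast skeletal muscle, lie 58982 and 131115 bases from *H19*. *Tnni2* was at 0.949, 49.1 and 96.1 CPM in LPS mice 1, 6 and 7 and between 0.681 and 1.32 CPM in the other 5 mice, and *Tnnt3* at 6.64, 51.2 and 107 CPM against 0.590 to 3.72 CPM. Their log2FC of 5.48 and 4.04 for LPS against control (edgeR, adjusted p = 0.00266 and 0.00151) became -0.19 and 0.99 with LPS mouse 1 as the only LPS mouse (adjusted p = 0.777 and 0.0597). *Mrpl23*, the nearest of the 12 at 34776 bases, was at 28.2 ± 2.31 CPM in control, 28.2 ± 7.28 with LPS and 35.9 ± 2.85 with dual treatment, and *Lsp1* at 75.6 ± 6.24, 100 ± 17.6 and 92.5 ± 37.5 CPM. Neither was called in the fit of all 8 mice with the filter and TMM factors, but *Mrpl23* was called for dual treatment against LPS with library size alone (edgeR adjusted p = 0.0109) and without LPS mouse 6 (0.017). *Lsp1* was called by edgeR for LPS against control without dual-treated mouse 2 or without mouse 5 (adjusted p = 0.0277 and 0.0279), with no filter and with the 2 groups fitted alone, and for dual treatment against LPS without dual-treated mouse 5 (0.0307). High levels in LPS mice 6 and 7 alone were thus found for the muscle genes near *H19* and not for its nearest tested neighbour. *Th*, which did not pass the filter, had 0, 3 and 13 counts in LPS mice 1, 6 and 7. It had 0 counts in all control mice, and 2 and 0 in dual-treated mice 2 and 5. The long non-coding RNA gene *Gm33148* on the plus strand, which overlaps both *H19* and *Igf2*, had 22, 13 and 23 counts in LPS mice 1, 6 and 7 and 0 to 3 in the other 5, so it did not follow *H19*, although without a known strand setting reads of overlapping genes cannot be told apart.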

How the data were processed

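The gene counts used here are the raw counts deposited by the authors. As their methods state, reads were checked with FastQC 0.11.9, trimmed with Trim Galore, aligned to GRCm39 with HISAT2 2.2.1 and counted with featureCounts 2.0.1. The annotation release, strand setting and handling of multimapping reads were not given in the sources used. GENCODE M39 gave symbols and coordinates for 54749 of 55416 identifiers, and the other 667 hold 0.0533% of counts.

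All 8 libraries were fitted together in edgeR 4.0.16 (R 4.3.3) as 3 groups, with filterByExpr, TMM factors and the quasi-likelihood test on 5 residual degrees of freedom. Adjusted p is by Benjamini-Hochberg over 18560 genes, and a gene is called at adjusted p under 0.05. SE is the absolute log2FC divided by the square root of F. Some genes of the lists enter the counts and medians of their lists and are not reported here one by one. Values of *Igf2* come from a fit without the filter. Likeness used log2 CPM with a prior count of 2. A limit for 0 counts is 3 counts in that library. An exact permutation test cannot give p below 0.1 with these groups.

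The listed genes, the pathway lists and the marker lists were chosen with earlier results of these data known. Genes named from the lists are those with large differences, those that change between settings, and those whose role bears on the listed genes. The code was first run on simulated counts.

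Alternatives tried were DESeq2 1.42.0, RLE and upper-quartile factors, no filter or a stricter one, library size alone, fits of 2 groups, leaving out each mouse, LPS mouse 1 as the only LPS mouse, and the canonical transcript length.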

Additional observations from a re-analysis of the deposited data

How the results depend on the processing

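No paired analysis was possible because the groups share fewer than 2 mouse numbers, and the numbers name separate mice.

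LPS mouse 1 as the only LPS mouse, and canonical transcript length, were chosen after seeing the data. Where 1 mouse is left in a group, it is assumed to vary like the mice of the other groups.

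Each value under another setting was put in a class. A count of calls moved if it differed more than 1.5-fold, which 18 did and 90 did not. A value of a gene on the other lists that is given one by one was reversed if it was called in either fit and its sign turned (4 values), weaker if its call was lost (141), stronger if it gained one (67), and otherwise unchanged in its call (3366). A value of the 10 listed genes was reversed if the gene was called and its sign turned (2 values). It moved if it shifted by more than the SD of log2 CPM within the groups compared (26), and 431 shifted by less. The last class includes changes of sign in genes that were not called, such as *Igf1* for dual treatment against LPS, from -0.28 to 0.07 with library size alone.

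With LPS mouse 1 as the only LPS mouse, *H19* had 0 counts with LPS, and only limits can be given, from 3 counts: its log2FC was at most -1.25 for LPS against control, in place of 6.00, and at least 0.80 for dual treatment against LPS, in place of -6.44, the latter resting on dual-treated mouse 5. The log2FC of *Tnni2* turned from 5.48 to -0.19 for LPS against control. With library size as the only scaling, the log2FC of *Pik3r1* for LPS against control was -0.26 (edgeR adjusted p = 0.0484). With TMM factors it was 0.03 and not called (edgeR adjusted p = 0.823). For *Mtor*, library size alone gave -0.0564 for LPS against control and 0.0612 for dual treatment against LPS, in place of 0.23 and -0.27.

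With the criterion of the study (fold above 2 and unadjusted p under 0.05), 7450, 6554 and 1944 genes were called in the 3 comparisons, and 19, 8 and 4 of the pathway list. With adjusted p and fold above 2 these were 7279, 6264 and 1327, and 19, 8 and 3. The edgeR adjusted p alone called 12346, 10960 and 2997.

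Leaving out each mouse in turn gave 11004 to 12709 genes called for LPS against control, 8673 to 10626 for dual treatment against LPS and 1220 to 3601 for dual treatment against control. For the pathway list the ranges were 26 to 30, 24 to 30 and 3 to 14. For dual treatment against control, the calls fell to 1220 without dual-treated mouse 2, 1788 without control mouse 1, 1553 without control mouse 2 and 1710 without control mouse 4.

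With library size as the only scaling, 4336 genes were higher and 7832 lower for LPS against control, 7889 and 3225 for dual treatment against LPS, and 1816 and 1030 for dual treatment against control. Dual-treated mouse 2 was nearer the LPS mean than mouse 5 in 67.7% of the 12346 genes called for LPS against control, in 62.1% of 29 on the pathway list and in 33.3% of 6 listed genes.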
